A study of Mus musculus with 18 samples.

Results

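The intercalated disc joins heart muscle cells end to end, and 7 genes of its junctions are described here across fibroblasts, cells in reprogramming and cardiomyocytes. They are Dsp, Pkp2, Jup, Dsg2, Dsc2, Cdh2 and Gja1, taken as a list of known disc genes, with earlier results of these data known. Each has 1 probe set that names no other gene, so all 7 were measured, among 19912 genes. RNA of CD1 mouse cells was measured on 18 Affymetrix mouse Gene 1.0 ST arrays, 3 for each of 6 groups. The end points were neonatal cardiomyocytes and neonatal cardiac fibroblasts. Between them stood GFP+ induced cardiomyocyte-like cells (iCMs), which the labels describe as fibroblasts that were reprogrammed, at 2 weeks and at 4 weeks, and GFP- cells at the same times, labelled as failed in reprogramming. The labels name neither the reprogramming factors nor the promoter that drives GFP, and no age beyond neonatal.

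Desmosomes anchor intermediate filaments at the cell membrane. Their cadherins (desmogleins and desmocollins) bind the neighbouring cell, the armadillo proteins plakoglobin and plakophilin bind the cadherin tails, and desmoplakin ties this plaque to the filaments. Adherens junctions do the same for actin through N-cadherin, and gap junctions of connexins carry current and small molecules between the cells. Mutations in desmosomal genes are a known cause of arrhythmogenic cardiomyopathy.

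Values are log2 intensities as the authors deposited them, so 1 unit is a 2-fold difference, and a level is compared for 1 gene across groups, never between genes. A gene was called higher or lower where its limma p-value, adjusted over all genes, was under 0.05. Group means carry the SD of 3 arrays, and differences carry limma's standard error. Replicates are described as biological in the series' design, but no label says whether they came from separate cultures, and where they did not, the p-values reflect technical spread alone. The arrays are bulk samples, in which fewer cells that express a gene and less RNA per cell cannot be told apart. The background limit was set at 6.16 log2, which is the smallest 25th percentile among the arrays, and a group mean below it has only a bound.

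The arrays labelled cardiac fibroblasts also carried high macrophage signal. The mean of 10 macrophage markers was 11.66 to 11.89 log2 in the fibroblast arrays, 11.85 to 12.06 in the GFP- arrays, 8.97 to 9.86 in the GFP+ arrays and 6.48 to 6.58 in the cardiomyocyte arrays. Of these markers 10 were called lower and 0 higher in the GFP+ cells than in fibroblasts, at both times, and their part in the differences from fibroblasts was not tested. Against cardiomyocytes, 10 were called higher and 0 lower in GFP+ cells at both times, by a median of 3.06 and 1.86 log2. Of all genes, 22.7% were higher there at 2 weeks and 19.0% at 4 weeks. The part of macrophages in the differences from cardiomyocytes was not tested either. The mean of 10 cardiomyocyte markers was 7.33 to 7.45 log2 in fibroblast arrays, 10.72 to 11.48 in GFP+ arrays and 13.06 to 13.12 in cardiomyocyte arrays. Of these 10, 0 were called higher and 8 lower in GFP+ cells than in cardiomyocytes at both times. Beside them, 19.4% of all genes were lower at 2 weeks and 16.1% at 4 weeks.

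The 7 junction genes took 3 courses in the GFP+ cells. The plaque genes Dsp and Jup stood above the cardiomyocyte level. Pkp2 and Cdh2 stood close to it, and the desmosomal cadherins Dsg2 and Dsc2 and the connexin Gja1 stood between fibroblasts and cardiomyocytes. All 7 were called higher in cardiomyocytes than in fibroblasts, where 19.6% of all genes were called higher and 21.5% lower. All 7 were also called higher in GFP+ cells than in fibroblasts at both times. Of all genes, 17.4% were higher and 15.8% lower than in fibroblasts at 2 weeks, and 14.3% and 15.2% at 4 weeks. All 7 were higher in GFP+ than in GFP- cells as well, beside 16.2% of all genes higher and 18.4% lower at 2 weeks, and 17.2% and 17.1% at 4 weeks. The median difference from fibroblasts over the 7 genes was 1.47 log2 at 2 weeks and 1.73 at 4 weeks, beside 0.03 and 0.02 over all genes. These comparisons share the fibroblast arrays or the GFP+ arrays. Against cardiomyocytes, 2 of the 7 were called higher and 4 lower at 2 weeks, and 2 higher and 3 lower at 4 weeks. Over all genes, 22.7% were higher and 19.4% lower at 2 weeks, and 19.0% higher and 16.1% lower at 4 weeks.

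**Figure D1:**
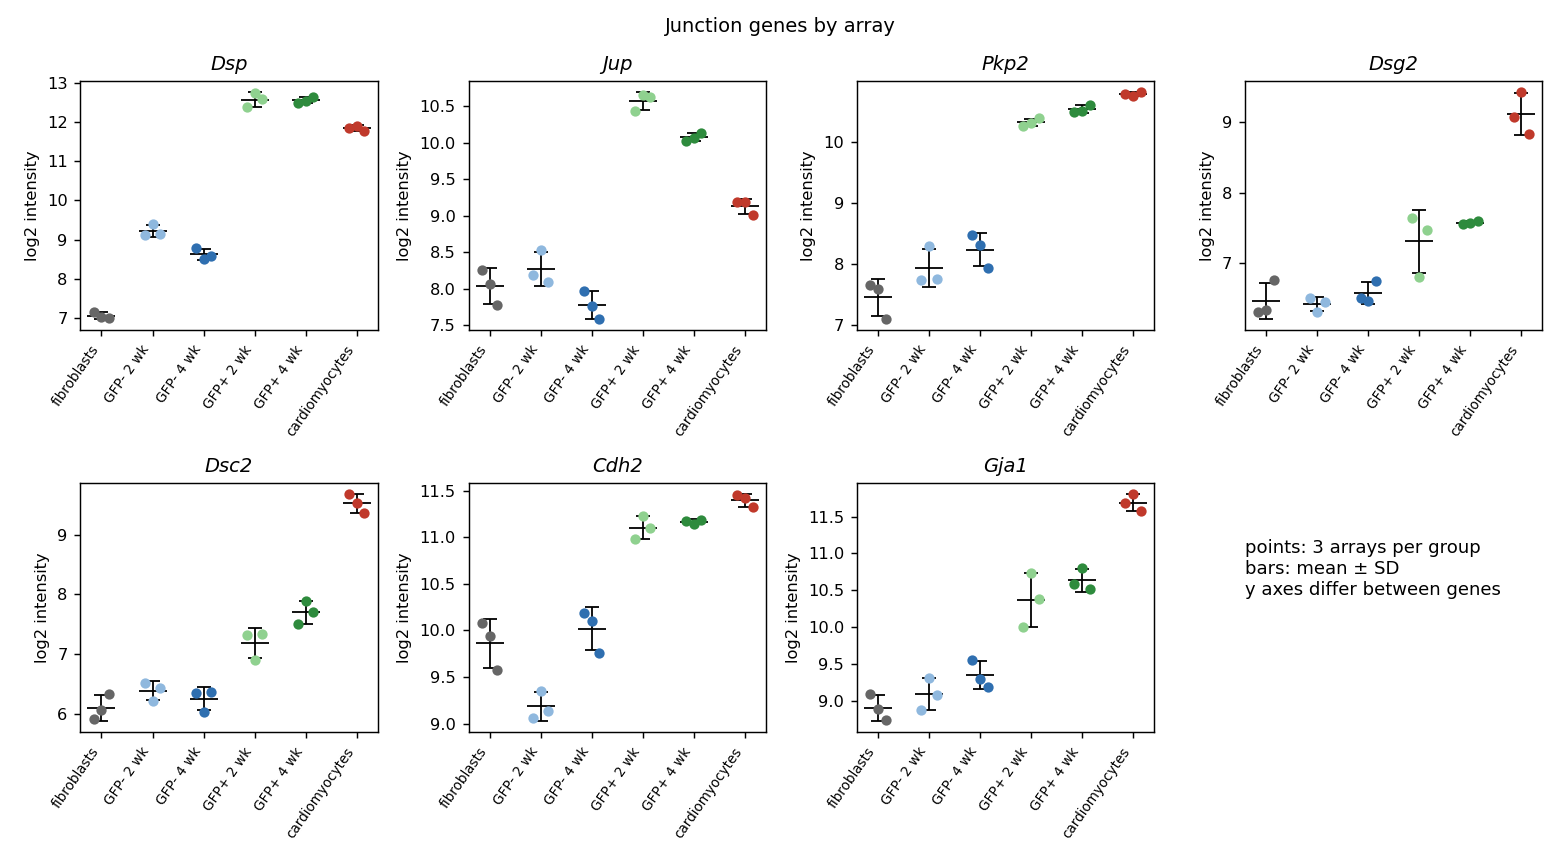
Log2 intensity of the 7 junction genes on every array, with groups along each horizontal axis, points for the 3 arrays and bars for mean ± SD; the vertical axes differ between genes. Dsp and Jup are highest in the GFP+ arrays, while the other 5 genes are highest in the cardiomyocyte arrays.

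The sequences before the start of Dsp and of Gja1 are shown because these genes took different courses in the same GFP+ arrays, Dsp above the cardiomyocyte level and Gja1 between the end points. Each is the 250 bases upstream of the RefSeq start on GRCm38.p6, 5′ to 3′ on the gene's own strand, which is the plus strand for both: chr13:38151044-38151293 for Dsp and chr10:56377050-56377299 for Gja1. Capitals mark every match, on either strand, to 5 motifs. The first is GATA, named for the factors that bind it, and the second is the MEF2 motif, searched as CTA and TAG with any 4 bases between them. The T-box core was searched as GGTGTG. The AP-1 motif, with any base at its centre, was searched as TGANTCA. The GC box bound by Sp1 was searched as GGGCGG. Factors of the GATA, MEF2 and T-box families are in use in the field for cardiac reprogramming.
Dsp: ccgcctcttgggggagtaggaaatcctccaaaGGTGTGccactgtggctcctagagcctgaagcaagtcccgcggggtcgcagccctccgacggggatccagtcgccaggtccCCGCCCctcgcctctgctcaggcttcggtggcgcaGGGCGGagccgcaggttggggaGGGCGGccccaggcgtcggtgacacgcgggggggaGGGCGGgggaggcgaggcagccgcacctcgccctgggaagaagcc
Gja1: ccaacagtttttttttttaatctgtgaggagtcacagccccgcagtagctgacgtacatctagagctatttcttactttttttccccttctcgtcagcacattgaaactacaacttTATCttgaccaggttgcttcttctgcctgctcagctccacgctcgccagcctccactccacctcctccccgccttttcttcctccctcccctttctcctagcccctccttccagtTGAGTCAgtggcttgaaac
The Dsp window held 1 T-box core, 218 bases before the start, and 4 GC boxes. The Gja1 window held 1 GATA, 134 bases before the start, and 1 AP-1 motif, 19 bases before it. Neither window held the MEF2 letters. The window of Jup, which also stood above the cardiomyocyte level, overlaps the gene's RefSeq extent and is not printed. It held 2 GATA, 1 T-box core and 2 GC boxes, and no MEF2 or AP-1 letters. Of 32851 windows of the same length in the RefSeq table, 53.6% held GATA, 16.3% the T-box core, 32.7% the GC box, 6.75% AP-1 and 3.20% MEF2. No match overlapped another, and a match is a description of letters, not a site. Any link between these letters and the courses of the genes was not tested.

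Desmoplakin (Dsp), the plaque protein that binds intermediate filaments, showed the largest differences of the 7 from fibroblasts, in all 5 other groups. It stood at 7.16, 7.02 and 7.001 log2 in the fibroblast arrays and at 11.85, 11.90 and 11.77 in the cardiomyocyte arrays. In GFP+ cells it stood at 12.37, 12.74 and 12.59 at 2 weeks and at 12.48, 12.54 and 12.63 at 4 weeks. The GFP- arrays gave 9.13, 9.39 and 9.15 at 2 weeks and 8.79, 8.499 and 8.58 at 4 weeks. Every GFP+ array lay above every cardiomyocyte array, and every GFP- array lay above every fibroblast array. Dsp was 27.4-fold higher in cardiomyocytes than in fibroblasts (4.78 ± 0.10 log2, SE, adjusted p = 5.54e-18). In GFP+ cells it was 45.4-fold higher than in fibroblasts at 2 weeks and 44.8-fold at 4 weeks. The GFP+ cells exceeded cardiomyocytes by 0.72 ± 0.10 log2 at 2 weeks (1.65-fold, adjusted p = 7.94e-06) and by 0.71 ± 0.10 at 4 weeks (adjusted p = 1.37e-05). Between 2 and 4 weeks the Dsp level of GFP+ cells differed by -0.02 log2, with a 95% confidence interval from -0.23 to 0.20.

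Dsp was also the member that differed most between GFP- cells and fibroblasts. It was 4.46-fold higher in GFP- cells at 2 weeks (2.16 ± 0.10 log2, adjusted p = 4.69e-11) and 2.94-fold at 4 weeks (1.56 ± 0.10, adjusted p = 2.17e-09). Between these times it fell by 0.60 ± 0.10 log2 in GFP- cells (adjusted p = 0.000439). Of the 7 junction genes, 2 were called higher and 1 lower in GFP- cells than in fibroblasts at 2 weeks, when 13.8% of all genes were higher and 8.93% lower. At 4 weeks 2 were higher and 0 lower, beside 5.79% and 5.70%.

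Of 10 cardiomyocyte markers, 6 were called higher in GFP- cells than in fibroblasts at 2 weeks and 5 at 4 weeks, with 0 lower. Their mean was 8.08 to 8.32 log2 in the 2-week and 8.01 to 8.16 in the 4-week GFP- arrays. The other 4 and 5 were not called. Actc1, the cardiac alpha-actin, stood at 9.17 ± 0.85 and 9.38 ± 0.32 log2 in GFP- cells against 7.14 ± 0.29 in fibroblasts. Pln, which had the widest spread of group means in the list, stood at 6.76 ± 0.05 and 7.06 ± 0.05 against 7.03 ± 0.32. Myh6 stood at 6.90 ± 0.18 and 7.19 ± 0.07 against 6.70 ± 0.21. The part of cardiomyocyte-like cells among the GFP- cells in the Dsp level was not tested.

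Plakoglobin (Jup), the armadillo protein shared by desmosomes and adherens junctions, was furthest above the cardiomyocyte level. Its values were 8.26, 8.07 and 7.77 log2 in fibroblasts and 9.19, 9.19 and 9.01 in cardiomyocytes. GFP+ cells gave 10.43, 10.65 and 10.62 at 2 weeks and 10.03, 10.06 and 10.13 at 4 weeks. GFP- cells gave 8.18, 8.53 and 8.09 at 2 weeks and 7.97, 7.76 and 7.59 at 4 weeks. The GFP+ arrays were separate from and above the cardiomyocyte arrays, whereas the GFP- arrays overlapped with the fibroblasts. The excess over cardiomyocytes was 1.44 ± 0.13 log2 at 2 weeks (2.71-fold, adjusted p = 1.54e-08) and 0.94 ± 0.13 at 4 weeks (1.92-fold, adjusted p = 6.09e-06). Against fibroblasts, Jup was 2.13-fold higher in cardiomyocytes (1.09 ± 0.13, adjusted p = 6.13e-07) and 5.77-fold and 4.10-fold higher in 2-week and 4-week GFP+ cells.

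From 2 to 4 weeks Jup fell by 0.49 ± 0.13 log2 in GFP+ cells (adjusted p = 0.0178) and by the same amount in GFP- cells (-0.49 ± 0.13, adjusted p = 0.0123). Of the 7 genes, 1 was called higher and 1 lower over this time in GFP+ cells (4.29% and 7.24% of all genes), and 1 higher and 2 lower in GFP- cells (7.16% and 10.2%). The Jup call in GFP+ cells was lost without replicate 2 (limma adjusted p 0.0621) or 3 (0.068) of the 2-week cells, or without replicate 1 (0.0568) or 2 (0.059) of the 4-week cells. The call in GFP- cells was lost without replicate 2 at 2 weeks (0.0613) or replicate 3 at 4 weeks (0.0686).

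Plakophilin-2 (Pkp2), the armadillo protein of the cardiac desmosome plaque, came close to the cardiomyocyte level. It measured 7.66, 7.60 and 7.10 log2 in fibroblasts and 10.78, 10.74 and 10.80 in cardiomyocytes. GFP+ cells gave 10.26, 10.31 and 10.38 at 2 weeks and 10.49, 10.51 and 10.60 at 4 weeks. The GFP- values were 7.75, 8.29 and 7.75 at 2 weeks and 8.47, 8.30 and 7.94 at 4 weeks. The GFP+ arrays lay far above all GFP- and fibroblast arrays and just below all cardiomyocyte arrays. Against fibroblasts, Pkp2 was 9.996-fold higher in cardiomyocytes (3.32 ± 0.15 log2, adjusted p = 3.81e-13) and 7.28-fold (2-week) and 8.45-fold (4-week) higher in GFP+ cells. Against cardiomyocytes the difference was -0.46 ± 0.15 log2 at 2 weeks (adjusted p = 0.0204) and -0.24 at 4 weeks, which was not called (adjusted p = 0.261, 95% confidence interval -0.56 to 0.08). The 2-week call was lost without replicate 1 of the 2-week GFP+ cells (limma adjusted p 0.0562) or replicate 3 of the cardiomyocytes (0.0564).

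In GFP- cells Pkp2 was higher than in fibroblasts by 0.48 ± 0.15 log2 at 2 weeks (adjusted p = 0.0301) and by 0.78 ± 0.15 at 4 weeks (adjusted p = 0.00141). The 2-week call was lost without replicate 2 of the GFP- cells (limma adjusted p 0.166), without replicate 3 of the fibroblasts (0.194), with array weights (0.0507) and when only these groups were fitted (0.097).

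Desmoglein-2 (Dsg2), the widely expressed desmosomal cadherin, lay well below the cardiomyocyte level in GFP+ cells. It stood at 6.30, 6.34 and 6.76 log2 in fibroblasts and at 9.07, 9.42 and 8.83 in cardiomyocytes. The GFP+ arrays gave 7.64, 6.81 and 7.47 at 2 weeks and 7.56, 7.57 and 7.60 at 4 weeks. GFP- arrays gave 6.51, 6.31 and 6.45 at 2 weeks and 6.51, 6.47 and 6.76 at 4 weeks. Replicate 2 of the 2-week GFP+ cells was the low one, and it still exceeded every fibroblast and GFP- array. Dsg2 was 6.23-fold higher in cardiomyocytes than in fibroblasts (2.64 ± 0.18, adjusted p = 1.27e-10). In GFP+ cells it was 1.79-fold higher at 2 weeks (0.84 ± 0.18, adjusted p = 0.000778) and 2.16-fold at 4 weeks (1.11 ± 0.18, adjusted p = 4.32e-05). The fibroblast mean of 6.47 log2 lay near the background limit of 6.16, which limits these folds over fibroblasts. The difference from cardiomyocytes was -1.80 ± 0.18 log2 at 2 weeks (adjusted p = 5.01e-08) and -1.53 ± 0.18 at 4 weeks (adjusted p = 6.02e-07).

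Desmocollin-2 (Dsc2), the partner cadherin of Dsg2, showed the widest gap to cardiomyocytes. Fibroblast arrays gave 5.90, 6.06 and 6.34 log2, with a mean under the background limit, and cardiomyocyte arrays 9.68, 9.53 and 9.37. GFP+ cells gave 7.32, 6.89 and 7.34 at 2 weeks and 7.51, 7.89 and 7.71 at 4 weeks. GFP- arrays gave 6.52, 6.21 and 6.44 at 2 weeks and 6.35, 6.03 and 6.37 at 4 weeks, overlapping with the fibroblasts. Because the fibroblast mean was not above background, cardiomyocytes were at least 9.56-fold higher (measured difference 3.43 ± 0.14 log2, adjusted p = 8.79e-14). On the same basis GFP+ cells were at least 1.88-fold higher at 2 weeks (1.08 ± 0.14, adjusted p = 4.98e-06) and at least 2.70-fold at 4 weeks (1.60 ± 0.14, adjusted p = 2.16e-08). Such a bound takes, for each dim array, the gene's own value or that array's 25th percentile, whichever is higher. Against cardiomyocytes Dsc2 was 5.08-fold lower at 2 weeks (-2.34 ± 0.14 log2, adjusted p = 5.35e-11) and 3.55-fold lower at 4 weeks (-1.83 ± 0.14, adjusted p = 2.84e-09).

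Dsc2 was the member called higher in GFP+ cells at 4 than at 2 weeks (0.52 ± 0.14 log2, adjusted p = 0.0239). That call was lost without replicate 2 of the 2-week cells (limma adjusted p 0.124), without replicate 2 (0.123) or 3 (0.0642) of the 4-week cells, and when only these groups were fitted (0.0546). In GFP- cells the difference was -0.14 ± 0.14 (adjusted p = 0.556). The difference between both time differences, 0.66 ± 0.20 log2, was not called (adjusted p = 0.0813), though it was without replicate 2 of the 2-week GFP- cells (0.0464) and with array weights (0.00562). Against fibroblasts, the 2-week GFP- value of Dsc2 was called higher with array weights alone (0.0157).

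Dsc2 and Dsg2 are the second and the last of a row of 9 desmosomal cadherin genes on chromosome 18, with no other protein-coding gene of RefSeq between the first and the last of the row. In order these are Dsc3, Dsc2, Dsc1, Dsg1c, Dsg1a, Dsg1b, Dsg4, Dsg3 and Dsg2, and 7 of them were measured. Beside Dsg2 and Dsc2, Dsg1b was called higher in cardiomyocytes than in fibroblasts, by 0.36 ± 0.12 log2 (adjusted p = 0.0215). Dsg1c also passed the test there (adjusted p = 0.0173), but both of its means were under the background limit, so no difference is given. In GFP+ cells none of the 5 measured neighbours was called different from fibroblasts. Dsc3, Dsg1c, Dsg4 and Dsg3 were under the background limit in all 6 groups, which limits what they can show. Dsg1b lay near the limit of 6.16 log2, at 6.17 in fibroblasts and at 6.11 and 6.32 in 2-week and 4-week GFP+ cells. It reached 6.53 in cardiomyocytes, so it is limited in the same way.

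N-cadherin (Cdh2), the adherens junction cadherin of heart muscle, stood well above background in fibroblasts too. Its values were 10.08, 9.94 and 9.57 log2 in fibroblasts and 11.45, 11.42 and 11.32 in cardiomyocytes. GFP+ cells gave 10.98, 11.23 and 11.10 at 2 weeks and 11.17, 11.14 and 11.19 at 4 weeks. GFP- cells gave 9.06, 9.36 and 9.14 at 2 weeks and 10.19, 10.11 and 9.76 at 4 weeks. The GFP+ arrays lay above all fibroblast and GFP- arrays and below all cardiomyocyte arrays, and the 2-week GFP- arrays were below all others. Cdh2 was 2.89-fold higher in cardiomyocytes than in fibroblasts (1.53 ± 0.13 log2, adjusted p = 2.99e-09), and 2.36-fold and 2.47-fold higher in 2-week and 4-week GFP+ cells. Against cardiomyocytes the GFP+ cells differed by -0.29 log2 at 2 weeks (95% confidence interval -0.55 to -0.03, adjusted p = 0.0708) and by -0.23 at 4 weeks (-0.49 to 0.04, adjusted p = 0.187), neither of them called. The 2-week difference was called lower with quantile normalization (limma adjusted p 0.0282), cyclic loess (0.00963), array weights (0.0404), a fit of only these groups (0.0479), without replicate 3 of the fibroblasts (0.0395) and without replicate 3 of the 4-week GFP- cells (0.0466). The 4-week difference was called lower with cyclic loess (0.0392).

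Cdh2 was the junction gene called lower in GFP- cells than in fibroblasts. At 2 weeks it was 1.60-fold lower (-0.68 ± 0.13 log2, adjusted p = 0.000507), and from 2 to 4 weeks it rose by 0.84 ± 0.13 (adjusted p = 0.00011). At 4 weeks it differed from fibroblasts by 0.16 ± 0.13 log2, which was not called (adjusted p = 0.564). Tjp1, a zonula occludens scaffold that binds cadherin complexes and connexins, differed from fibroblasts by -1.17 ± 0.17 log2 in 2-week GFP- cells (adjusted p = 5.83e-05) and rose by 1.10 ± 0.17 to 4 weeks (adjusted p = 0.000187).

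Of 10 endothelial markers, 5 were called higher and 1 lower at 4 than at 2 weeks in GFP- cells, beside 7.16% and 10.2% of all genes. The list mean was 7.68 to 7.77 log2 in the 2-week and 7.98 to 8.28 in the 4-week arrays. Emcn, an endothelial sialomucin, stood at 9.09 ± 0.15 and then 11.06 ± 0.15 log2. Vwf stood at 8.83 ± 0.07 and then 7.97 ± 0.22, and Kdr at 7.65 ± 0.24 and then 7.23 ± 0.19. The part of endothelial cells in the Cdh2 rise was not tested.

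Connexin 43 (Gja1), the main gap junction protein of the ventricle, lay between the end points in GFP+ cells. It measured 9.09, 8.89 and 8.73 log2 in fibroblasts and 11.68, 11.81 and 11.58 in cardiomyocytes. GFP+ cells gave 9.996, 10.73 and 10.38 at 2 weeks and 10.58, 10.81 and 10.52 at 4 weeks. The GFP- arrays gave 8.87, 9.31 and 9.08 at 2 weeks and 9.56, 9.29 and 9.18 at 4 weeks. All GFP+ arrays lay between the highest GFP- array and the lowest cardiomyocyte array. Gja1 was 6.90-fold higher in cardiomyocytes than in fibroblasts (2.79 ± 0.16 log2, adjusted p = 8.59e-12). GFP+ cells were 2.76-fold above fibroblasts at 2 weeks (1.47 ± 0.16, adjusted p = 2.74e-07) and 3.32-fold at 4 weeks (1.73 ± 0.16, adjusted p = 2.3e-08). They were 2.50-fold below cardiomyocytes at 2 weeks (-1.32 ± 0.16, adjusted p = 6.89e-07) and 2.08-fold at 4 weeks (-1.05 ± 0.16, adjusted p = 1.55e-05). In GFP- cells at 4 weeks Gja1 differed from fibroblasts by 0.44 ± 0.16 log2, which was not called (adjusted p = 0.0804). It was called without replicate 1 (limma adjusted p 0.0355) or 2 (0.0408) of the 2-week GFP+ cells, with cyclic loess (0.0422), with array weights (0.00889) and when only these groups were fitted (0.0474).

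**Figure D2:**
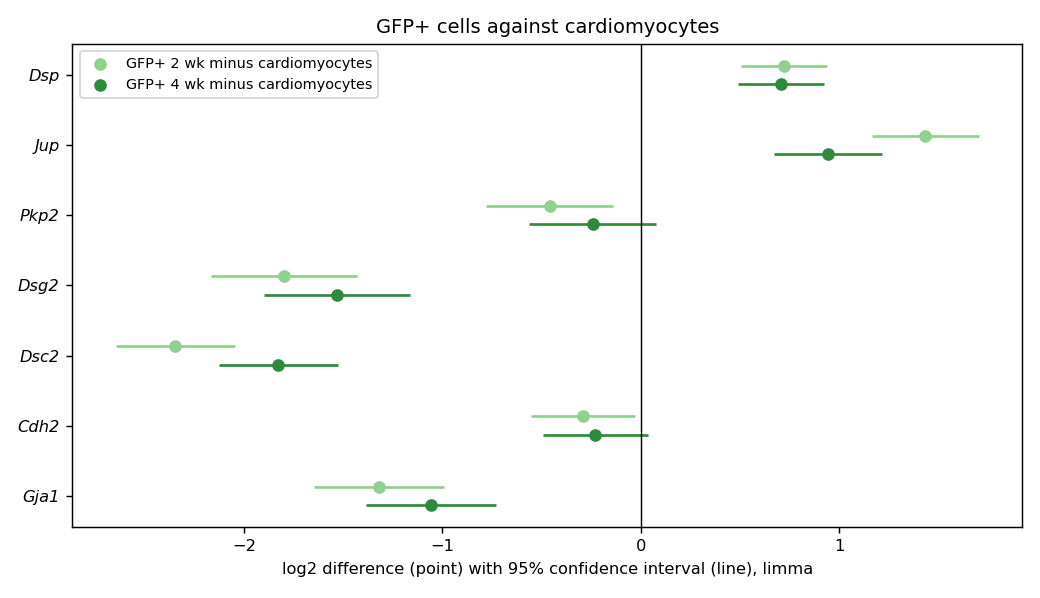
Log2 difference of GFP+ cells from cardiomyocytes for each junction gene at 2 and 4 weeks, as points with 95% confidence intervals from limma. Dsp and Jup lie above 0 at both times, Dsg2, Dsc2 and Gja1 lie below it at both times, and the 4-week intervals of Pkp2 and Cdh2 include 0.

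The order of the group levels differed between members. For Dsp and Jup the GFP+ cells at 2 weeks ranked highest, then those at 4 weeks, then cardiomyocytes. For Pkp2, Dsg2, Dsc2, Cdh2 and Gja1 cardiomyocytes ranked highest, then GFP+ cells at 4 weeks, then those at 2 weeks. Fibroblasts and GFP- cells held the lower ranks for all 7. The GFP+ times, neighbours in this order, were not called different for Dsp, Pkp2, Dsg2, Cdh2 and Gja1 (adjusted p 0.325 to 0.953), nor were cardiomyocytes and 4-week GFP+ cells for Pkp2 and Cdh2. Among the lower ranks, no neighbours were called different for Jup, Dsg2, Dsc2 and Gja1 (adjusted p 0.223 to 0.899), while every neighbouring step was called for Dsp.

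Set as a percentage of the log2 distance from the fibroblast mean to the cardiomyocyte mean, the members spread widely in the same GFP+ arrays. At 4 weeks Jup lay at 186% ± 4.8 (SD, n = 3) and Dsp at 115% ± 1.6. Pkp2 lay at 92.7% ± 1.8 and Cdh2 at 85.1% ± 1.5, and Gja1 lay at 62.2% ± 5.5. Dsc2 at 46.7% ± 5.6 and Dsg2 at 42.0% ± 0.8 were the lowest. At 2 weeks the lowest were the same pair, Dsc2 at 31.6% ± 7.3 and Dsg2 at 31.9% ± 17. GFP- cells at 4 weeks lay at 32.6% ± 3.1 for Dsp and between -23.7% (Jup) and 23.6% (Pkp2) for the other 6 genes. The median over the 7 genes in GFP+ cells was 79.9% ± 6.6 (SD, n = 3) at 2 weeks and 85.1% ± 1.5 at 4 weeks, and in GFP- cells 9.93% ± 4.3 and 15.2% ± 5.8. The percentage for Jup rests on the smallest distance between end points of the 7. That for Dsc2 rests on a fibroblast mean under the background limit of 6.16 log2. The fibroblast mean of Dsg2, 6.47 log2, lay near that limit, so the percentages of both are limited by it. Each SD holds both end-point means fixed, so it leaves out the spread of the end points. On this scale the fibroblast and cardiomyocyte arrays had SDs of 9.7 and 11.2 for Dsg2, and 22.6 and 9.6 for Jup. These percentages describe the group means, and no test was made between genes.

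**Figure D3:**
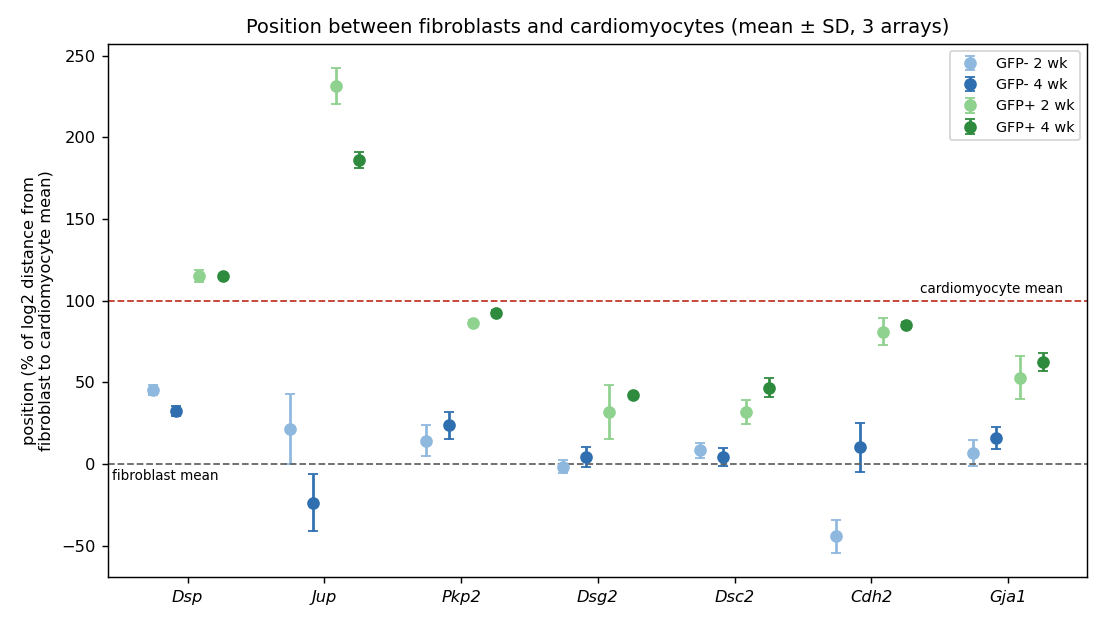
Position of each junction gene as a percentage of the log2 distance from the fibroblast mean (0) to the cardiomyocyte mean (100), as mean ± SD over 3 arrays for GFP- and GFP+ cells at 2 and 4 weeks. The SD leaves out the spread of the fibroblast and cardiomyocyte arrays. In 4-week GFP+ cells Jup (186%) and Dsp (115%) lie above 100, and Dsg2 (42.0%) and Dsc2 (46.7%) are the lowest.

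The difference between 2 and 4 weeks was compared between GFP+ and GFP- cells in 1 interaction term, which called 2 of the 7 genes. Over all genes, it called 1.86% higher and 2.08% lower. For Dsp the term was 0.58 ± 0.15 log2 (adjusted p = 0.0274), where GFP- cells fell with time and GFP+ cells gave -0.02. For Cdh2 it was -0.77 ± 0.18 log2 (adjusted p = 0.016), where GFP- cells rose and GFP+ cells gave 0.06 ± 0.13 (adjusted p = 0.825). The Dsp call was lost without replicate 1 (limma adjusted p 0.059) or 3 (0.0568) of the 2-week GFP+ cells and without replicate 2 (0.0508) or 3 (0.0751) of the 4-week GFP+ cells. It was also lost without replicate 2 of the 2-week GFP- cells (0.057), replicate 2 (0.0856) or 3 (0.0516) of the 4-week GFP- cells, and with only these groups fitted (0.0635). The Cdh2 call was lost without replicate 1 of the 2-week (0.0524) or of the 4-week GFP- cells (0.0556).

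Other genes of the same structures were taken from 4 lists, and no list was tested as a set. Over all genes, 19.6% were called higher and 21.5% lower in cardiomyocytes than in fibroblasts. For GFP+ cells these shares were 17.4% and 15.8% at 2 weeks, and 14.3% and 15.2% at 4 weeks. Of 11 other desmosome genes measured (13 listed), 4 were called higher and 0 lower in cardiomyocytes than in fibroblasts. In GFP+ cells these counts were 3 and 0 at 2 weeks, and 2 and 0 at 4 weeks. The list's median difference was 0.185 log2 in cardiomyocytes and 0.046 and 0.102 in GFP+ cells, beside 0.034, 0.026 and 0.022 over all genes. Perp, a membrane protein of desmosomes, was higher than in fibroblasts by 3.25 ± 0.13 log2 in cardiomyocytes and by 2.54 ± 0.13 and 2.33 ± 0.13 in GFP+ cells at 2 and 4 weeks. Against cardiomyocytes it differed in GFP+ cells by -0.71 ± 0.13 (adjusted p = 0.000151) and -0.91 ± 0.13 log2 (adjusted p = 1.07e-05). Pkp4, an armadillo protein of cell junctions, was higher than in fibroblasts by 1.68 ± 0.11 in cardiomyocytes and by 1.18 ± 0.11 and 0.98 ± 0.11 in GFP+ cells.

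Of 19 catenins and disc adaptors measured (20 listed), 14 were called higher and 2 lower in cardiomyocytes than in fibroblasts, 13 and 2 in 2-week and 13 and 1 in 4-week GFP+ cells. Their median difference from fibroblasts was 1.15 log2 in cardiomyocytes and 0.72 and 0.62 in GFP+ cells, beside 0.03, 0.03 and 0.02 over all genes. Lmo7, an actin-linked adaptor, was higher by 4.53 ± 0.24 in cardiomyocytes and by 3.70 ± 0.24 and 3.98 ± 0.24 log2 in GFP+ cells. Ctnna3, alpha-T-catenin, which links desmosome and adherens proteins in the heart, was not above background in fibroblasts. It was at least 10.3-fold higher in cardiomyocytes (measured difference 3.73 ± 0.17 log2, adjusted p = 3.76e-13), and at least 2.97-fold and 3.87-fold in GFP+ cells. Des, desmin, the intermediate filament of muscle that desmoplakin anchors, was higher by 3.66 ± 0.32 in cardiomyocytes and by 3.30 ± 0.32 and 2.61 ± 0.32 in GFP+ cells.

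Against cardiomyocytes, 4 of the 19 were called higher and 9 lower in 2-week GFP+ cells, and 5 higher and 8 lower at 4 weeks. Over all genes, 22.7% were higher and 19.4% lower at 2 weeks, and 19.0% and 16.1% at 4 weeks. Afdn, afadin, which ties nectins to actin, exceeded cardiomyocytes by 1.79 ± 0.12 log2 at 2 weeks (adjusted p = 1.67e-10) and 1.65 ± 0.12 at 4 weeks (adjusted p = 7.49e-10). Its means were 11.63 ± 0.08 and 11.48 ± 0.08 log2 in GFP+ cells against 9.83 ± 0.04 in cardiomyocytes and 9.17 ± 0.25 in fibroblasts. Nrap, which anchors myofibrils at the disc, differed from cardiomyocytes by -3.07 ± 0.14 and -2.97 ± 0.14 log2. Xirp1, an actin-binding disc protein, differed by -2.00 ± 0.11 and -1.94 ± 0.11, and Ank2, ankyrin-B, by -2.00 ± 0.10 and -1.93 ± 0.10. Afdn thus lay above, and Nrap, Xirp1 and Ank2 below, the cardiomyocyte level. Ank2 stood at 7.57 ± 0.13 log2 in 4-week GFP+ cells and 7.45 ± 0.03 in fibroblasts, against 9.50 ± 0.13 in cardiomyocytes.

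Of 15 other connexins measured (19 listed), 4 were called higher and 0 lower in cardiomyocytes than in fibroblasts. In GFP+ cells these counts were 4 and 0 at 2 weeks, and 3 and 0 at 4 weeks, beside the shares over all genes given above. The list's median difference was 0.143 log2 in cardiomyocytes and 0.172 and 0.093 in GFP+ cells. Gja5, a connexin of atrial and conduction cells, was higher in cardiomyocytes than in fibroblasts by 4.11 ± 0.19 log2, and it differed from cardiomyocytes by -3.34 ± 0.19 and -3.66 ± 0.19 log2 in 2-week and 4-week GFP+ cells. Gjc1, a connexin of the embryonic heart and the nodes, was higher than in fibroblasts by 2.39 ± 0.12 in cardiomyocytes and by 0.38 ± 0.12 (adjusted p = 0.0174) and 0.67 ± 0.12 (adjusted p = 0.000166) in GFP+ cells. In GFP- cells Gjc1 differed from fibroblasts by -0.67 ± 0.12 at 2 weeks (adjusted p = 0.000351) and -0.39 ± 0.12 at 4 weeks (adjusted p = 0.0401). Gjc1 therefore lay above fibroblasts and below cardiomyocytes in GFP+ cells, and below fibroblasts in GFP- cells. Gja4, a connexin of arterial endothelium, was higher than in fibroblasts in 4-week GFP- cells by 1.02 ± 0.14 (adjusted p = 4.36e-05).

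Of 17 other cadherins, all measured, 4 were called higher and 2 lower in cardiomyocytes than in fibroblasts. In GFP+ cells these counts were 2 and 1 at 2 weeks, and 3 and 1 at 4 weeks, beside the shares over all genes given above. The list's median difference was 0.119 log2 in cardiomyocytes and -0.011 and 0.075 in GFP+ cells. Cdh13, T-cadherin, which lacks a cytoplasmic tail, was higher than in fibroblasts by 3.14 ± 0.12 and 3.16 ± 0.12 log2 in GFP+ cells. It exceeded cardiomyocytes there by 1.00 ± 0.12 (adjusted p = 8.41e-07) and 1.02 ± 0.12 log2 (adjusted p = 7.45e-07). Cdh5, the endothelial VE-cadherin, was higher than in fibroblasts by 3.71 ± 0.12 log2 in cardiomyocytes and by 1.97 ± 0.12 and 3.65 ± 0.12 in GFP- cells, beside the endothelial markers above. Cdh1, E-cadherin of epithelia, differed from fibroblasts by -1.0 ± 0.12 log2 in 2-week GFP+ cells (adjusted p = 8.03e-07) and by -0.88 ± 0.12 at 4 weeks (adjusted p = 4e-06). Cdh3, P-cadherin, was higher in 2-week GFP+ cells than in fibroblasts by 1.09 ± 0.18 (adjusted p = 6.58e-05).

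**Figure D4:**
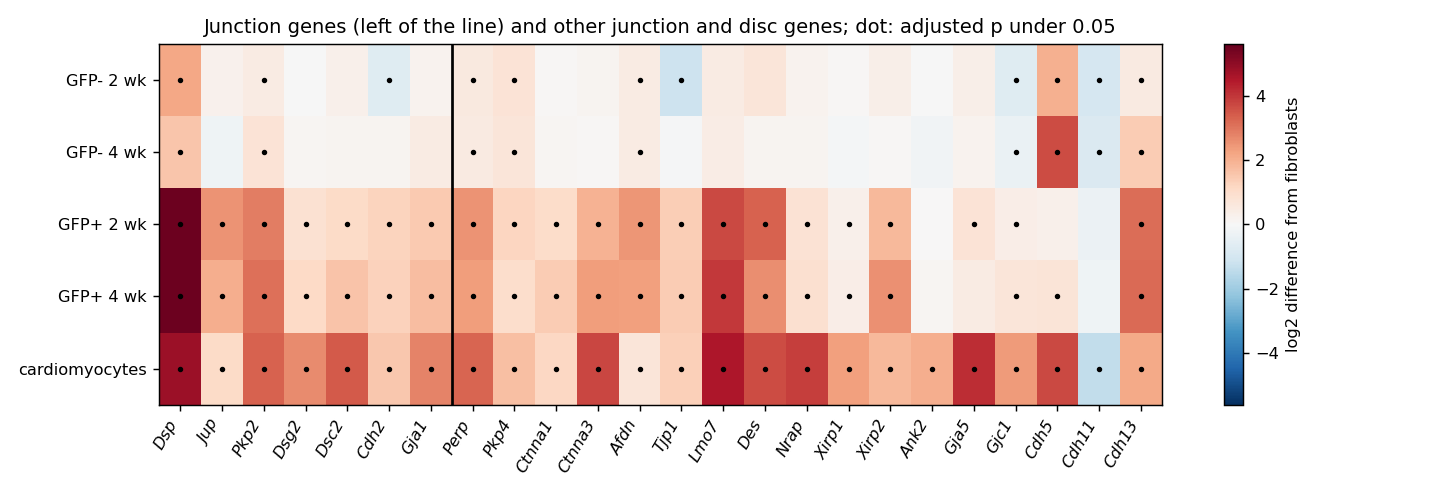
Log2 difference from fibroblasts (colour) of the 7 junction genes, left of the line, and 17 other junction and disc genes, for GFP- and GFP+ cells at 2 and 4 weeks and for cardiomyocytes; a dot marks a limma adjusted p under 0.05. Dsp is the darkest in GFP+ cells, and Nrap, Gja5 and Ank2 are darker in cardiomyocytes than in GFP+ cells.

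Desmosomes are also built by mesothelial and epithelial cells, so markers of both are given beside the junction genes. Of 13 mesothelial and epicardial markers, 10 were called higher and 0 lower in GFP+ cells than in cardiomyocytes, at both times. Against fibroblasts, 8 were higher and 2 lower in 2-week GFP+ cells (6 and 3 at 4 weeks). Their mean was 8.95 to 9.15 log2 in the 2-week and 8.68 to 8.88 in the 4-week GFP+ arrays, 7.44 to 7.52 in cardiomyocyte arrays, 8.11 to 8.56 in fibroblast arrays and 7.83 to 8.42 in GFP- arrays. The mesothelial list was thus higher in the GFP+ arrays than in any other, as Dsp and Jup were. In other groups the list and these genes differed. The list was lowest in the cardiomyocyte arrays, where Dsp and Jup were higher than in all fibroblast and GFP- arrays. Against fibroblasts, 2 of the 13 markers were higher and 6 lower in 2-week GFP- cells (1 and 6 at 4 weeks). There Dsp was called higher at both times, and Jup was not called. Upk1b, a uroplakin of mesothelium, stood at 12.12 ± 0.43 and 11.92 ± 0.21 log2 in GFP+ cells against 6.88 ± 0.11 in cardiomyocytes and 9.60 ± 0.33 in fibroblasts. Msln, mesothelin, stood at 11.06 ± 0.34 and 10.16 ± 0.18 in GFP+ cells, 7.14 ± 0.10 in cardiomyocytes, 7.62 ± 0.24 in fibroblasts, and 8.92 ± 0.38 and 8.09 ± 0.11 in GFP- cells. The part of mesothelial cells in the levels of Dsp and Jup above cardiomyocytes was not tested. Of 10 epithelial markers, 0 were called higher and 1 lower in GFP+ cells than in fibroblasts at both times, and their mean was 6.69 to 6.997 log2 over all arrays.

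**Figure D5:**
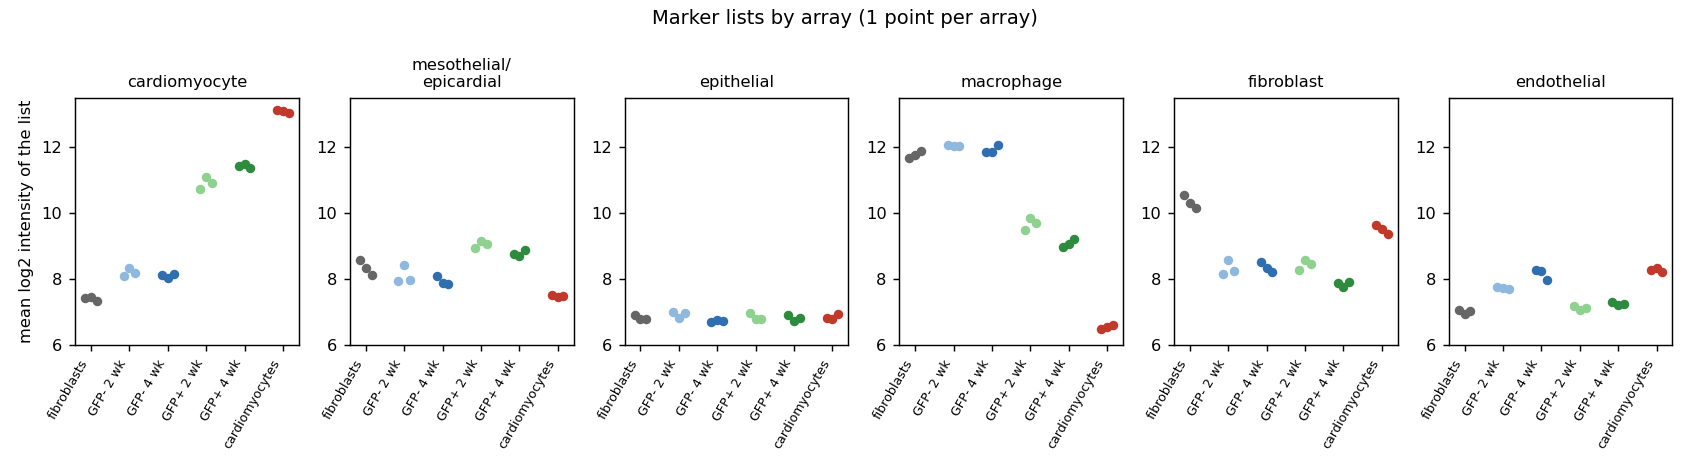
Mean log2 intensity of 6 marker lists, with 1 point per array and groups along each horizontal axis. The mesothelial list is highest in the 2-week GFP+ arrays (8.95 to 9.15), the epithelial list stays within 6.69 to 6.997, and the macrophage list is at 6.48 to 6.58 in cardiomyocytes and 8.97 to 12.06 elsewhere.

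The other marker lists gave these counts against fibroblasts, beside the shares over all genes given above for the same comparisons. Of 10 fibroblast markers, 1 was higher and 9 lower in GFP+ cells at both times. List means were 8.28 to 8.56 log2 at 2 weeks and 7.76 to 7.91 at 4 weeks, against 10.16 to 10.55 in fibroblasts. In GFP- cells 0 were higher and 9 lower at 2 weeks, and 1 and 9 at 4 weeks. The GFP- list means were 8.14 to 8.56 and 8.19 to 8.53. In cardiomyocytes 1 was higher and 7 lower, with list means of 9.36 to 9.65. The part of fibroblasts in the cardiomyocyte arrays was not tested. Of 10 endothelial markers, 2 were higher and 0 lower in 2-week GFP+ cells, 1 and 0 at 4 weeks, and 9 and 1 in cardiomyocytes. Of 8 smooth muscle markers, 3 were higher and 1 lower in GFP+ cells at 2 weeks, and 2 and 1 at 4 weeks. Of 4 Schwann and glial markers, 0 were higher and 0 lower at 2 weeks, and 0 and 1 at 4 weeks.

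The genes whose 6 group means followed each junction gene most closely were ranked by Pearson's r among 4428 genes with means that span at least 1 log2. All share the same arrays, so these are descriptions. For Dsp they were Csrp3 (r = 0.995), a muscle LIM protein, Ppp1r3c (0.992), which targets a phosphatase to glycogen, and Myl4 (0.991), the atrial and embryonic myosin light chain. For Pkp2 they were Fhod3 (0.999), a formin of the sarcomere, Ryr2 (0.998), the calcium release channel, and Pdhx (0.997), a pyruvate dehydrogenase component. For Jup they were Avpi1 (0.996), Igsf9b (0.993) and Sgcb (0.991), beta-sarcoglycan.

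For Dsg2 the closest were Suclg1 (0.999), an enzyme subunit of the citric acid cycle, Dusp18 (0.999), a phosphatase, and Filip1 (0.997). For Dsc2 they were Strip2, Nlrp10 and Fstl4 (each 0.998). For Cdh2 they were Nkiras1 (0.996), Ttc23 (0.991) and Tslp (0.991). For Gja1 they were Fam174b (0.996), Akap1 (0.994), which anchors kinase A at mitochondria, and Ctnna3 (0.993) from the disc list. Among the members themselves, Dsg2 and Dsc2 were the most alike over the group means (r = 0.994), and Jup was least like Dsg2 (0.485) and Dsc2 (0.487).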

How the data were processed

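RNA of 18 samples (6 groups of 3) was measured on Affymetrix arrays. The authors deposited log2 intensities per probe set, made with RMA per the submitters' processing notes, whose version and genome build are not given in the sources used here. RNA was isolated with PicoPure and labelled with a MessageAmp II-biotin kit, per the labels' protocols. The number of arrays limits the precision. Medians per array were 7.32 to 7.44 log2.

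Of 28682 probe sets, 21755 named 1 gene in the platform annotation. Where a gene had several, the one highest on average was kept, which gave 19912 genes. One limma 3.58.1 model (R 4.3.3, lmFit and eBayes, two-sided) was fitted to all arrays with group as its only term, and p-values were adjusted by Benjamini-Hochberg within each of 12 comparisons. The script was tested on simulated data. Promoter sequences are RefSeq's, found for 3 of the 4 members sought and shown for Dsp and Gja1. Members, lists, the background limit and alternatives were chosen with earlier results of these data known. Named genes are the 7 members, called genes of each junction list with the largest differences in a comparison (up to 4), markers with the widest spread (up to 3 a list) and the 3 genes most alike to each member. Of the cadherin row, Dsc3, Dsc1, Dsg1a, Dsg4 and Dsg3 were added after their values were seen. Alternatives were quantile and cyclic loess normalization, array weights, an intensity trend, only the groups compared, a 2-fold minimum, leaving out dim genes, testing all probe sets, the mean of a gene's probe sets, a replicate block and leaving out each array.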

Additional observations from a re-analysis of the deposited data

Results flagged for a closer look

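Dsp and Cdh2 differed between GFP+ and GFP- cells in their change from 2 to 4 weeks, by limma's interaction term over all genes. For Dsp the term was 0.58 log2 (adjusted p = 0.0274), and all 3 GFP- arrays were lower at 4 weeks than any at 2 weeks. The Dsp call was lost in 7 of the 18 fits that each left out 1 array (limma adjusted p up to 0.0856) and with only the groups compared (0.0635). For Cdh2 it was -0.77 log2 (adjusted p = 0.016), and all 3 GFP- arrays were higher at 4 weeks than any at 2 weeks. The Cdh2 call was lost in 2 of those 18 fits (limma adjusted p 0.0524 and 0.0556). Neither term reached a 2-fold difference.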

How the results depend on the processing

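Of 2352 values of single junction genes under other settings, 2265 kept their direction and their side of the threshold, 44 lost a call, 19 gained one and 24 changed sign, the last only in differences that were not called. Whether replicate numbers pair the arrays was not settled. Over all groups together, deviations of same-numbered arrays correlated over 0.1 in 15 of 45 pairs (median r -0.002). With different numbers this held in 21 of 90 pairs (median r 0.001). Pairing of GFP+ with GFP- cells of the same time was not tested alone. A replicate block over all groups changed 1 call, Cdh2 in 2-week GFP+ cells against cardiomyocytes (-0.29 log2, limma adjusted p 0.0477). Causes were not tested, except that a 2-fold minimum removes small differences by construction.

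Signs turned with quantile normalization for the GFP+ time difference of Dsp (0.052 log2) and the interaction of Jup (-0.034), with cyclic loess for the interactions of Jup (-0.019) and Gja1 (-0.0067), and with array weights for Dsg2 in 2-week GFP- cells against fibroblasts (0.049), the GFP+ time difference of Dsp (6e-04) and the interactions of Jup (-0.11) and Gja1 (-0.26). Cyclic loess put the median position of 4-week GFP+ cells at 80.6% in place of 85.1%.

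With array weights, calls in the other lists came to 21 in place of 12 (2-week GFP- cells against fibroblasts), 14 in place of 4 (GFP+ time difference), 12 in place of 7 (GFP- time difference) and 12 in place of 5 (interaction). Calls over all genes rose too, in the same order to 7398 from 4520, 5985 from 2297, 6087 from 3465 and 4191 from 785. GFP- junction calls over time came to 5 in place of 3, adding Pkp2 and Gja1. Fitting only the groups compared left 1 junction gene for the GFP+ time difference and 1 for the interaction, in place of 2 each. In the other lists it left 2 of 4 for the GFP+ time difference. Over all genes it gave 1486 calls in place of 2297 for that difference, and 664 in place of 785 for the interaction.

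A 2-fold minimum left, in the other lists, 13 (2-week) and 10 (4-week) calls for GFP+ cells against fibroblasts, 13 and 14 against GFP- cells, 13 and 13 against cardiomyocytes, 2 and 3 for GFP- cells against fibroblasts, 0 for the GFP+ and 2 for the GFP- time difference, and 3 for the interaction. Over all genes, in the same order, it left 1440 and 1541, 1798 and 1703, 2091 and 1660, 473 and 402, 101 and 308, and 222. Junction calls became 1 for GFP- cells against fibroblasts at each time, 3 for 4-week GFP+ cells against cardiomyocytes, and 0 for both time differences and the interaction. Against cardiomyocytes the minimum removed the calls of Dsp at both times (0.72 and 0.71 log2), Jup at 4 weeks (0.94) and Pkp2 at 2 weeks (-0.46). No junction gene then exceeded cardiomyocytes at 4 weeks. Dsg2 in GFP+ cells lost its call against fibroblasts at 2 weeks and against GFP- cells at both times, and Dsc2 against GFP- cells at 2 weeks.

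Leaving out 1 array at a time gave 0 to 2 junction calls for the GFP+ time difference and 1 to 2 for the interaction. In the other lists it gave 9 to 14 calls for 4-week GFP- cells against fibroblasts (the lowest without fibroblast replicate 1), 2 to 5 for the GFP+ time difference and 3 to 6 for the interaction. The median position of 4-week GFP+ cells ran from 83.1% to 86.7%. Dsg2 in 2-week GFP- cells ran from -0.13 to 0.10 log2 and the GFP+ time difference of Dsp from -0.11 to 0.070. Interactions ran from -0.27 to 0.024 for Pkp2, -0.13 to 0.10 for Jup, -0.13 to 0.28 for Dsg2 and -0.18 to 0.19 for Gja1. Signal near background limits what Dsc2 and Dsg2 in fibroblasts and their neighbours on the chromosome can show.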
